A study of Mus musculus with 18 samples.

Results

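The S100 genes encode small calcium-binding proteins, and 10 of them were followed here across 18 RNA libraries of mouse heart tissue: S100a1, S100a4, S100a6, S100a8, S100a9, S100a10, S100a11, S100a13, S100a16 and S100b. They were chosen by symbol, with the Ensembl identifiers of the files matched to the GENCODE M21 annotation, and are 10 of the 34150 genes in the files. All 10 averaged 0.5 FPKM or more over the libraries, the filter that kept 13710 genes for testing. FPKM counts fragments per length of exon and per size of the library, so that levels of different genes can be set side by side.

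An S100 protein carries a pair of EF-hand loops, helix-loop-helix folds that hold calcium, and most members work as dimers. Binding of calcium exposes a surface that docks on target proteins, among them annexins, myosins, calcium pumps and calcium release channels. Some members are also released from cells and act on receptors such as RAGE and TLR4. In the heart S100A1 is the member of the cardiomyocyte, S100A4, S100A6, S100A10 and S100A11 are abundant in fibroblasts, vascular cells or macrophages, and S100A8 and S100A9 pair as calprotectin, a major cytosolic protein of neutrophils.

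The study sequenced total RNA of heart tissue after removal of ribosomal RNA in 3 groups of 6 libraries: mice given the HXP treatment, mice with myocardial infarction (MI) and control mice. The title places HXP in a model of acute MI; what HXP stands for, its dose, the time of collection, the strain, sex and age of the mice, the part of the heart taken and whether each HXP mouse had an infarct are not stated in the labels. The libraries are replicates by their labels alone, so a p-value reflects no more than the spread among these libraries. In bulk tissue, fewer cells of a type and less RNA per cell cannot be told apart.

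The steps in the FPKM values gave back 75.7 to 80.8 M reads per library. The lowest genes (S100b, S100a8 and S100a9) rested on 0 to 483 reads per library, and S100a4 on 99 to 161 in control. Counting error was not computed for each gene. Reads of mitochondrial origin or of nuclear copies made up 20.5% to 45.5% of the total in HXP, 20.4% to 33.2% in MI and 36.4% to 42.6% in control. The numbers that the file headers give to the libraries form 3 runs, and the run of 10 libraries held 2 HXP, 5 MI and 3 control libraries. All 11 cardiomyocyte markers examined were tested and abundant in each group (summed level 7511 to 15259 FPKM in HXP, 8145 to 13463 FPKM in MI and 12758 to 15406 FPKM in control). MI 5 also held lung epithelial transcripts (8 markers summing to 1167 FPKM, against at most 2.35 FPKM in the other 17 libraries), and MI 4 held skeletal muscle transcripts (7 markers summing to 69.5 FPKM, against at most 9.59 FPKM elsewhere). Values of the members and counts of the gene lists in MI are also given without them.

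On GRCm38, 7 of the 10 genes lie within 185 kb of chromosome 3 (S100a1, S100a13, S100a16, S100a4, S100a6, S100a8 and S100a9, 90511034 to 90695721). S100a11 and S100a10 lie 2825 kb further along in a stretch of 44.2 kb (93520488 to 93564643), and S100b is on chromosome 10 (76253853 to 76261159). The gene models of S100a1 (90511034 to 90514392, minus strand) and S100a13 (90514435 to 90524581, plus strand) run in opposite directions from starts 42 bases apart. RefSeq promoter windows of 250 bases before to 50 after the start were at hand for 9 of the 10 genes, in 10 windows, since S100a16 has a pair of starts; S100a10 had none. The windows of S100a13 and S100a1 are shown because these neighbours share 204 bases of promoter, printed in capitals and read from opposite strands, while their transcripts differed in MI as described further on. That of S100a11 is shown because this gene had the highest fold change in MI on the log2(FPKM + 1) scale; S100a4 had the higher ratio of group means, 4.86 against 3.93. All are from RefSeq, build GRCm38.p6, written 5′ to 3′ on the strand of the gene, and the capitals in S100a11 mark 2 AP-1 motifs.
S100a13 (chr3:90514185-90514484, plus strand): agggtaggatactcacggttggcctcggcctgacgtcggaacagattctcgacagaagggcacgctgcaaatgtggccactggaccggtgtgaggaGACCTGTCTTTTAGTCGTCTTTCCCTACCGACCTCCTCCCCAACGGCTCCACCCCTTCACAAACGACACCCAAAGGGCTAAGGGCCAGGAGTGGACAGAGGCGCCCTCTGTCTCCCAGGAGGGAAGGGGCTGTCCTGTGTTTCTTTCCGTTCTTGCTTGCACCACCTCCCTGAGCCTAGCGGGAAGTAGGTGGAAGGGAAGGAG
S100a1 (chr3:90514281-90514580, minus strand): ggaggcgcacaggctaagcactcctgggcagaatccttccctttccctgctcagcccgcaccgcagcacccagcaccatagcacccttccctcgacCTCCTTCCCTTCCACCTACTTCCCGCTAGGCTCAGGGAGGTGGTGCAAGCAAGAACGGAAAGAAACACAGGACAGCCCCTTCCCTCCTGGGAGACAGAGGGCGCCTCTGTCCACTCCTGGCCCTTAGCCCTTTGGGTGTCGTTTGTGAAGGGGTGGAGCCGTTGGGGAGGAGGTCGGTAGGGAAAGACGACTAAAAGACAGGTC
S100a11 (chr3:93520246-93520545, plus strand): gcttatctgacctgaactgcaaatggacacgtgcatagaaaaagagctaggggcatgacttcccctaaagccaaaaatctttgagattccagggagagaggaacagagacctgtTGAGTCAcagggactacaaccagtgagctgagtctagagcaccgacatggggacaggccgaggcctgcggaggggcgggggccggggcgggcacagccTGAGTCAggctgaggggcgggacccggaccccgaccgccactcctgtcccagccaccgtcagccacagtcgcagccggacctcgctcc

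The AP-1 motif was searched as TGANTCA on both strands. In S100a11 it stood at bases -136 and -38 from the start, and the only other window with a match was one of the S100a16 windows, at base -192. Of 32851 promoters, 7.81% held it. The C/EBP motif, searched as TTGCNNAA on both strands, was found only in the S100a9 window, at base -236, and in 10.8% of all promoters. A match describes letters in a window and nothing about binding.

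In control hearts S100a1 exceeded every other member by more than an order of magnitude. Its mean was 452 ± 39.0 FPKM, followed by S100a11 at 31.6 ± 4.96, S100a16 at 20.7 ± 4.58, S100a10 at 17.4 ± 4.57, S100a13 at 15 ± 1.55 and S100a6 at 11.9 ± 1.62 FPKM (SD, n = 6 each). S100a9 at 3.58 ± 4.62, S100a4 at 2.78 ± 0.587, S100a8 at 1.99 ± 2.41 and S100b at 0.437 ± 0.177 FPKM were the low members (SD, n = 6 each). Every pair of neighbours in this order except S100a1 and S100a11 had overlapping ranges over the 6 libraries.

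The order differed in the other groups. In HXP it ran S100a1, S100a11, S100a10, S100a6, S100a13, S100a16, S100a4, S100a9, S100a8 and S100b, and again only S100a1 stood clear of its neighbour. In MI it ran S100a1, S100a11, S100a10, S100a6, S100a16, S100a13, S100a4, S100a9, S100a8 and S100b. There the range of S100a1 lay clear of that of S100a11, S100a11 of S100a10 and S100a13 of S100a4, and all other neighbours overlapped. S100a1 supplied 68.3% ± 15.02 of the summed FPKM of the 10 genes in HXP, 62.1% ± 7.98 in MI and 81.1% ± 2.15 in control (SD, n = 6 each).

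**Figure D1:**
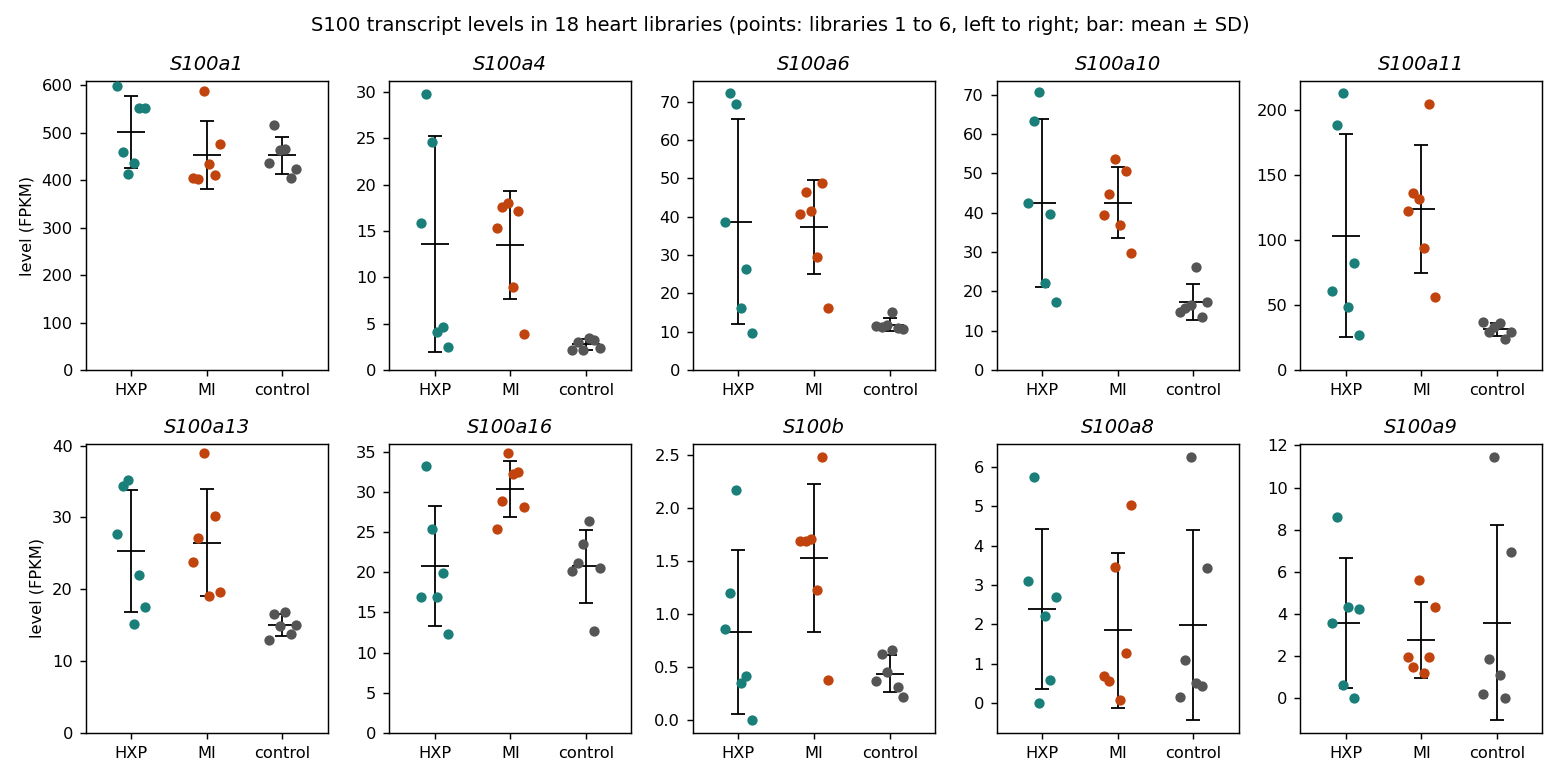
Level in FPKM (vertical axis, linear, a separate scale in each panel) of the 10 S100 genes in the HXP, MI and control libraries; points are libraries 1 to 6 from left to right in each group, and bars are the mean ± SD (n = 6). For S100a4, S100a6, S100a10, S100a11 and S100a13 every MI point lies above every control point, and the highest HXP points lie above all MI points for S100a4, S100a6, S100a10 and S100a11.

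The comparison of MI with control asked which members differ in the infarcted heart. S100a4, S100a6, S100a10, S100a11, S100a13, S100a16 and S100b rose in MI, and none of the 10 fell. The rises of S100a11 and S100a4 were the largest, at 3.61-fold and 3.51-fold on the FPKM + 1 scale, while S100a1 differed by 0.995-fold and S100a8 by 1.00-fold. Thus 7 of 10 members were called higher in limma (adjusted p below 0.05), where 43.3% of the 13710 genes were called and 40.1% were called higher. For 5 of the 10 every MI library lay above every control library, against 27.9% of all genes.

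Fold changes here are differences of log2(FPKM + 1), which understate the change of genes near 1 FPKM. Each carries its standard error (SE), which pools the spread within all 3 groups. A member therefore has the same SE in each comparison of the main fit, also where the groups differ in spread. The median gene was 0.27 higher in MI, and the median over the 10 members was 0.76. Of all called genes 5494 were higher and 440 lower; under quantile normalization 1810 of 4181 called genes were higher, and under median-ratio scaling 2257 of 4470. The directions of S100a4, S100a6, S100a10, S100a11, S100a13, S100a16 and S100b held under these scalings and under scaling to non-mitochondrial reads.

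S100A11 binds annexin A1 and takes part in membrane repair and keratinocyte growth. S100a11 (ENSMUSG00000027907) had a lowest, median and highest level of 26.8, 71.6 and 213 FPKM in HXP, 56.3, 127 and 205 FPKM in MI and 24.2, 31.3 and 37.4 FPKM in control. MI 6 was the lowest and MI 5 the highest MI library, and all 6 MI libraries exceeded the highest control. The log2 fold change in MI was 1.85 (SE 0.41, n = 6 each, limma adjusted p = 0.0139). Without MI 5, and without any other single library, the adjusted p stayed at or below 0.0420. S100a11-ps, an annotated pseudogene copy, could share its reads.

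S100A4, known as fibroblast-specific protein 1 and also made by macrophages and lymphocytes, binds non-muscle myosin IIA and promotes cell motility. S100a4 (ENSMUSG00000001020, chromosome 3, 90603771 to 90606045) had a lowest, median and highest level of 2.54, 10.2 and 29.8 FPKM in HXP, 3.87, 16.3 and 17.99 FPKM in MI and 2.18, 2.74 and 3.52 FPKM in control. Here too MI 6 was the lowest MI library, just above the highest control. In limma S100a4 differed by 1.81 on the log2 scale (SE 0.48, n = 6 each, limma adjusted p = 0.0151). Of its 584 exon bases, 302 are shared with Gm42674, a gene model on the same strand, so reads of the pair may not be separable.

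S100A6, or calcyclin, rises in proliferating cells and binds the ubiquitin ligase adaptor CacyBP. S100a6 (ENSMUSG00000001025, chromosome 3, 90612882 to 90624181) had a lowest, median and highest level of 9.81, 32.4 and 72.2 FPKM in HXP, 16.3, 41.1 and 48.8 FPKM in MI and 10.7, 11.4 and 15.1 FPKM in control. Its log2 fold change in MI was 1.5 (SE 0.39, n = 6 each, limma adjusted p = 0.0147), and all MI libraries exceeded all controls.

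S100A10 is the member that has lost calcium binding; it joins annexin A2 in a tetramer that carries plasminogen and ion channels at the cell surface. S100a10 (ENSMUSG00000041959) had a lowest, median and highest level of 17.3, 41.0 and 70.5 FPKM in HXP, 29.7, 42.1 and 53.7 FPKM in MI and 13.4, 16.2 and 26.3 FPKM in control. MI and control did not overlap, although MI 6, at 29.7 FPKM, came close to control 4, at 26.3 FPKM. Fitted over all libraries, S100a10 differed by 1.25 on the log2 scale (SE 0.28, n = 6 each, limma adjusted p = 0.0139).

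S100A13 is known for the release of FGF1 and interleukin 1 alpha without a signal peptide, and S100A16 is a widely expressed member with a role in adipocyte differentiation. S100a13 (ENSMUSG00000042312) had a lowest, median and highest level of 15.2, 24.8 and 35.3 FPKM in HXP, 19.1, 25.5 and 39.0 FPKM in MI and 12.9, 14.99 and 16.9 FPKM in control. MI and control did not overlap, and the log2 fold change was 0.74 (SE 0.20, n = 6 each, limma adjusted p = 0.0153). S100a16 (ENSMUSG00000074457, chromosome 3, 90537254 to 90543151) had a lowest, median and highest level of 12.4, 18.5 and 33.3 FPKM in HXP, 25.4, 30.6 and 34.9 FPKM in MI and 12.7, 20.8 and 26.4 FPKM in control.

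For S100a16, 5 of 6 MI libraries exceeded the highest control, control 4. Its log2 fold change was 0.55 (SE 0.19, n = 6 each, limma adjusted p = 0.0324), the smallest of the called members. The S100a16 call was the least stable: it was lost under all 3 other scalings (0.17 to 0.32, adjusted p 0.141 to 0.414) and without any 1 of MI 2, MI 3, MI 5, control 1, control 2 and control 5 (0.42 to 0.56, adjusted p 0.0510 to 0.0729).

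S100B is the glial member, found in Schwann cells, adipocytes and cartilage and reported in stressed cardiomyocytes. S100b (ENSMUSG00000033208) was low, with a lowest, median and highest level of 0, 0.639 and 2.17 FPKM in HXP, 0.379, 1.69 and 2.49 FPKM in MI and 0.211, 0.409 and 0.662 FPKM in control. In MI, 5 of 6 libraries exceeded the highest control and MI 6 lay within the control range. For S100b the log2 fold change was 0.77 (SE 0.24, n = 6 each, limma adjusted p = 0.0219), and without MI 5 it was 0.67 with an adjusted p of 0.0574. S100b lies inside Dip2a, which runs on the opposite strand and shares no exonic base with it; the library kit does not mark strand, and Dip2a itself was at 0.834 to 4.24 FPKM in HXP, 2.17 to 3.92 FPKM in MI and 1.29 to 2.01 FPKM in control.

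S100A1 binds the ryanodine receptor and the calcium pump SERCA2a of the cardiomyocyte and raises contractility. S100a1 (ENSMUSG00000044080) had a lowest, median and highest level of 413, 506 and 598 FPKM in HXP, 403, 422 and 588 FPKM in MI and 406, 450.5 and 516 FPKM in control. The ranges covered each other, with MI 3 alone above the highest control. The log2 fold change in MI was -0.0066 (SE 0.115, 95% interval -0.25 to 0.24, limma adjusted p = 0.967). Under the other scalings it was -0.20 to -0.40 (adjusted p 0.101 to 0.197). Relative to the median gene S100a1 stood 0.28 lower with the deposited scaling and 0.14 to 0.39 lower under the others.

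The neighbours S100a13 and S100a1, which share promoter sequence, thus had different values in MI. The level of S100a13 as a percentage of that of S100a1 was 5.21 ± 2.25 in HXP, 5.85 ± 1.32 in MI and 3.32 ± 0.244 in control (SD, n = 6 each). The lowest MI library, at 4.12%, lay above the highest control, at 3.62%, while HXP ran from 3.17% to 8.54%. This percentage, taken from the deposited values, does not change when a library is scaled by 1 factor. Quantile normalization is not a scaling of that kind.

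**Figure D2:**
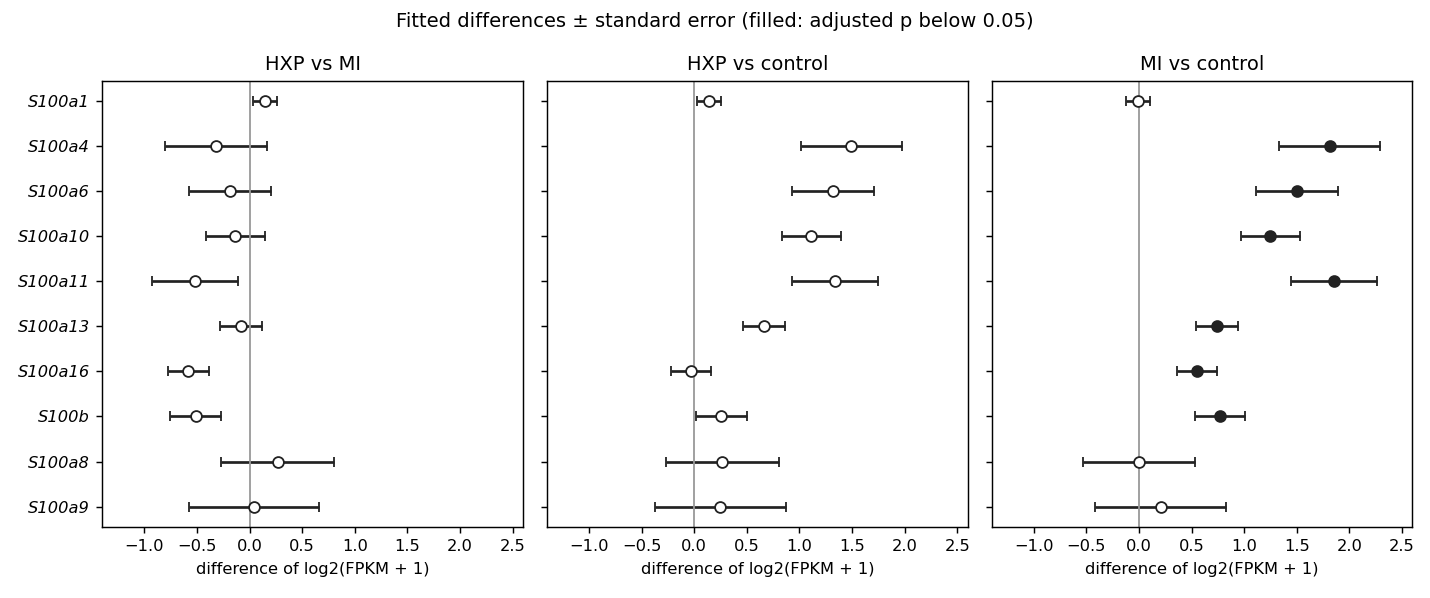
Fitted difference of log2(FPKM + 1) (horizontal axis) with its standard error for each S100 gene in HXP against MI, HXP against control and MI against control (n = 6 libraries each); filled points have a limma adjusted p below 0.05. Filled points occur in MI against control alone, for 7 of the 10 genes.

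S100A8 and S100A9 are stored together in neutrophils and inflammatory monocytes and signal through TLR4 and RAGE when released. Neither was called in MI. S100a8 (ENSMUSG00000056054, chromosome 3, 90668978 to 90670035) had a lowest, median and highest level of 0, 2.45 and 5.74 FPKM in HXP, 0.0758, 0.973 and 5.04 FPKM in MI and 0.169, 0.806 and 6.26 FPKM in control. S100a9 (ENSMUSG00000056071, chromosome 3, 90692632 to 90695721) had 0, 3.90 and 8.59 FPKM in HXP, 1.18, 1.95 and 5.62 FPKM in MI and 0, 1.46 and 11.5 FPKM in control. The highest library of all 18 was control 3 for both genes.

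The log2 fold change in MI was 0.0007 for S100a8 (SE 0.53, 95% interval -1.12 to 1.13, limma adjusted p = 0.999) and 0.21 for S100a9 (SE 0.62, 95% interval -1.10 to 1.51, limma adjusted p = 0.794). Both intervals hold changes of 1 log2 unit in either direction. S100a8 was listed at 0 in HXP 3, S100a9 in HXP 5 and control 5, and S100b in HXP 6. A listed 0 can be a failed estimate, since a gene with a median of 89.2 FPKM was also listed at 0 in some library. It can also be a true absence. Of 3149 genes that averaged 10 FPKM or more, 12 held a 0, and 6 of the 12 were protein coding. Sftpc, whose mean rests on MI 5, was among the 12. Whether the listed 0 of S100a8, S100a9 and S100b was a failed estimate or a true absence was not tested.

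The pair moved together over libraries, with r = 0.91 between deviations of log2(FPKM + 1) from the group means over 18 libraries that share depth and preparation. Their summed level was highest in control 3 (17.7 FPKM), HXP 2 (14.3 FPKM), control 6 (10.4 FPKM), MI 6 (9.37 FPKM) and MI 3 (9.10 FPKM). Of the 16 neutrophil markers, 6 were tested and 2 were called in MI, both higher: Clec4d, a myeloid lectin receptor, and Csf3r, the G-CSF receptor. The share called higher over all genes was 40.1%. Clec4d was at 1.46 ± 0.699 FPKM in MI and 0.0768 ± 0.0742 FPKM in control, and Csf3r at 1.19 ± 0.538 FPKM in MI and 0.358 ± 0.113 FPKM in control (SD, n = 6 each).

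The 16 markers summed to 2.24 to 13.7 FPKM in HXP, 4.07 to 20.5 FPKM in MI and 1.37 to 10.8 FPKM in control, with HXP 2, MI 5 and control 3 at the top of their groups. In MI 5, the library with lung transcripts, Lcn2 alone supplied 12.2 FPKM of the sum. It was at 0.867 to 1.39 FPKM in the other MI libraries. In the libraries highest for the pair, the called markers differed. Clec4d was at 4.55 FPKM in HXP 2, the highest of the 18, against 0.0617 FPKM in control 3 and 0 in control 6. Csf3r was at 2.37 FPKM in HXP 2, also the highest of the 18, against 0.475 FPKM in control 3 and 0.451 FPKM in control 6. Other markers of the list went the other way. Of Camp, Ngp and Ltf, only Ngp was tested, and it was not called. Together these genes summed to 6.21 FPKM in control 3, 3.96 FPKM in control 6 and 4.99 FPKM in MI 6. Their sum was 2.08 FPKM in MI 3 and 0.122 FPKM in HXP 2. The part of neutrophils in the level of S100a8 and S100a9 was not tested.

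**Figure D3:**
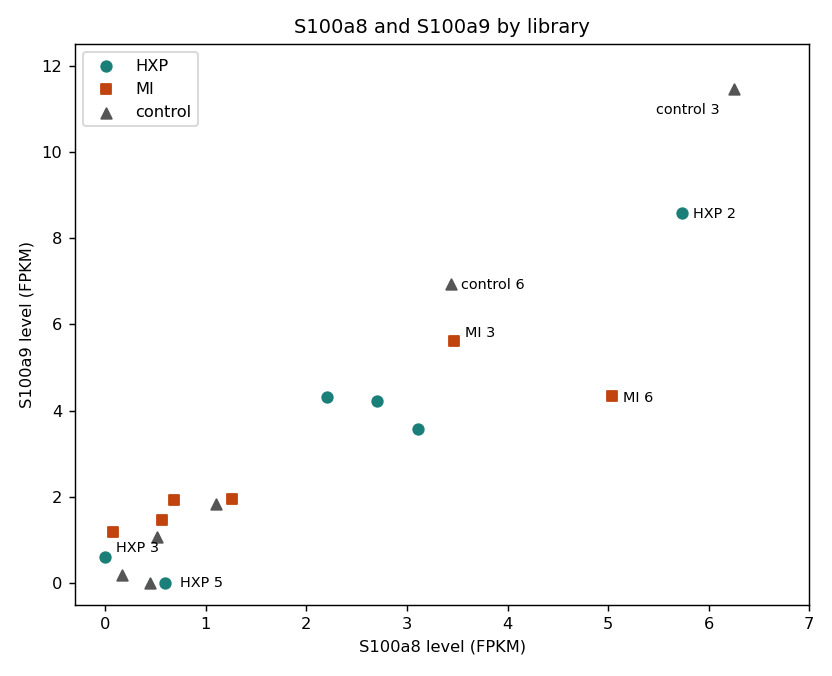
Level of S100a9 against that of S100a8 in FPKM (both axes linear), 1 point per library, for the HXP (circles), MI (squares) and control (triangles) groups. The libraries of the 3 groups mix along a common diagonal, and the highest point is control 3 at 6.26 and 11.5 FPKM.

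HXP was next set against MI, with the limits that the labels do not say whether each HXP mouse had an infarct and that 4 of 6 HXP libraries sat in a run without MI libraries. No member was called by limma, nor was any of the 13710 genes (0% called, 0% called higher, 1891 genes at an unadjusted p below 0.05). S100a16 and S100b were the members at an unadjusted p below 0.05, both lower in HXP. Voom on the recovered reads called 0 of the 10 members and 0 of all genes. The median over the members was -0.16 and over all genes -0.12.

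S100a16 stood at 20.8 ± 7.46 FPKM in HXP, against 30.3 ± 3.48 FPKM in MI (SD, n = 6 each). In HXP, 5 of 6 libraries lay below the lowest MI library, and HXP 2 alone lay within the MI range. This was a log2 difference of -0.58 (SE 0.19, 95% interval -0.99 to -0.18, limma adjusted p = 0.258). It was -0.20 in the run of 10 libraries alone, which held 2 HXP and 5 MI libraries, and -0.73 without HXP 2. S100a16 in HXP was also at the level of control hearts, 20.7 ± 4.58 FPKM (SD, n = 6).

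S100b stood at 0.833 ± 0.778 FPKM in HXP, against 1.53 ± 0.696 FPKM in MI (SD, n = 6 each), a log2 difference of -0.51 (limma adjusted p = 0.360, SE 0.24). For S100a11 the difference was -0.52 (SE 0.41, 95% interval -1.38 to 0.34, limma adjusted p = 0.529), with 103 ± 78.1 FPKM in HXP, against 124 ± 49.5 FPKM in MI (SD, n = 6 each). For S100a4, S100a6, S100a10 and S100a13 the HXP and MI means were nearly equal, at 13.6 and 13.5, 38.8 and 37.3, 42.6 and 42.5, and 25.3 and 26.5 FPKM. Medians in HXP were lower than in MI for S100a4, at 10.2 and 16.3 FPKM, and S100a6, at 32.4 and 41.1 FPKM. They were close for S100a10, at 41.0 and 42.1 FPKM, and S100a13, at 24.8 and 25.5 FPKM. The log2 differences of these genes ran from -0.32 to -0.09, with 95% intervals that reached from -1.33 to 0.70 for S100a4 and from -0.51 to 0.33 for S100a13.

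S100a1 was at 502 ± 75.3 FPKM in HXP, against 453 ± 71.7 FPKM in MI (SD, n = 6 each; log2 difference 0.15, 95% interval -0.09 to 0.39, limma adjusted p = 0.526). S100a8 differed by 0.27 and S100a9 by 0.04 (limma adjusted p = 0.807 and 0.976). In the run of 10 libraries alone, the differences of S100a4, S100a6, S100a10, S100a11 and S100a13 were above 0, from 0.10 to 0.40, so their direction was not fixed by these data.

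The HXP libraries differed widely among themselves. The highest HXP library exceeded the lowest 11.7 times for S100a4, 7.36 times for S100a6, 7.97 times for S100a11 and 4.08 times for S100a10, against 4.65, 2.99, 3.64 and 1.81 times in MI and 1.62, 1.42, 1.54 and 1.95 times in control. HXP 2 and HXP 3 were the highest 2 of the 6 for each of these 4 genes, and HXP 6 was the lowest. HXP 6 lay below all 6 control libraries for S100a6 and within the control range for S100a4, S100a10 and S100a11. The difference in spread between groups was not tested.

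**Figure D4:**
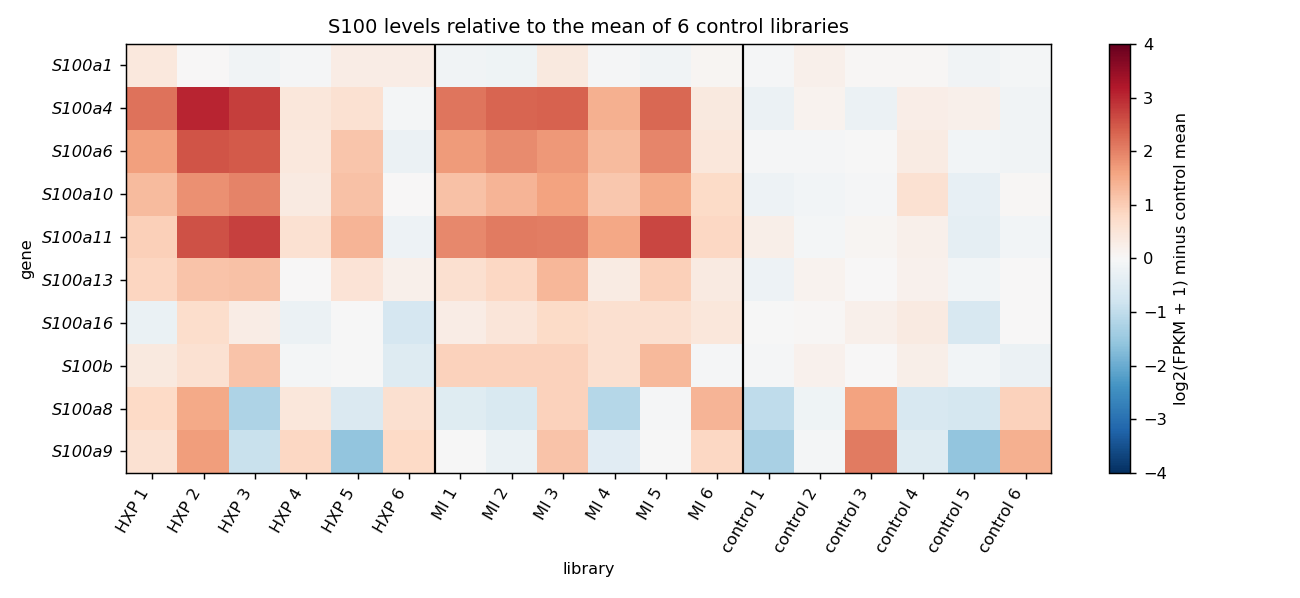
Colour scale of log2(FPKM + 1) minus the mean of the 6 control libraries for the 10 S100 genes (rows) in the 18 libraries (columns, HXP, MI and control); red is higher and blue is lower. HXP 2, HXP 3 and the MI libraries other than MI 6 are red for S100a4, S100a6, S100a10 and S100a11, while HXP 6 and the controls are near white and S100a8 and S100a9 follow another pattern.

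HXP was set against the same 6 control libraries as MI, so the values of the 2 comparisons are not independent. Again no member was called by limma, where 0.314% of the 13710 genes were called and 0.0948% were called higher (43 and 13 genes, with 4541 at an unadjusted p below 0.05). S100a4, S100a6, S100a10, S100a11 and S100a13 had an unadjusted p below 0.05, all higher in HXP, and voom on the recovered reads also called none. Log2 fold changes were 1.49 for S100a4 (limma adjusted p = 0.0925, SE 0.48), 1.32 for S100a6 (SE 0.39, adjusted p = 0.0881) and 1.33 for S100a11 (SE 0.41, adjusted p = 0.0890). They were 1.11 for S100a10 (SE 0.28, adjusted p = 0.0809) and 0.66 for S100a13 (SE 0.20, adjusted p = 0.0881).

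These values sit close to the threshold. All 5 of these genes were called under quantile, non-mitochondrial and median-ratio scaling, where 3.93%, 5.67% and 3.41% of all genes were called higher. They were also called without HXP 6, where 28.1% of all genes were called higher, S100a10 reached 1.33 (limma adjusted p = 0.0102) and S100a4 1.81 (adjusted p = 0.0180). At least 4 of 6 HXP libraries exceeded the highest control for each of the 5. S100a1 (0.14), S100a16 (-0.03), S100b (0.26), S100a8 (0.27) and S100a9 (0.25) had limma adjusted p from 0.374 to 0.917. The median over the members was 0.46 and over all genes 0.16.

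Markers of other cell types were set beside S100a4, S100a6, S100a10 and S100a11, and their likeness across libraries was not measured. For each of these S100 genes HXP 6 and MI 6 were the lowest libraries of their groups. The highest MI library was MI 3 for S100a4 and S100a10 and MI 5 for S100a6 and S100a11. In HXP it was HXP 2 for S100a4 and S100a6 and HXP 3 for S100a10 and S100a11. All 14 fibroblast and matrix markers and all 14 macrophage and monocyte markers were called higher in MI, against 40.1% of all genes. The fibroblast and matrix markers summed to 109 to 2906 FPKM in HXP, 502 to 3175 FPKM in MI and 151 to 223 FPKM in control, with HXP 3 and MI 5 highest and HXP 6 and MI 6 lowest in their groups. The macrophage markers summed to 110 to 1051 FPKM in HXP, 260 to 1148 FPKM in MI and 174 to 240 FPKM in control, with HXP 2, MI 5, HXP 6 and MI 6 at those ends. The part of these cells in the S100 values was not tested.

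Postn, a matrix protein of activated fibroblasts, reached 88.4 ± 53.1 FPKM in MI and 3.14 ± 0.618 FPKM in control, and Ms4a7, a macrophage membrane protein, 3.64 ± 1.78 FPKM in MI and 0.411 ± 0.0969 FPKM in control (SD, n = 6 each). Of the 11 cardiomyocyte markers 4 were called in MI, all lower: Pln, Ckm, Tnni3 and Atp2a2. Of the other lists, 1 of 5 tested Schwann cell markers (Mbp), 1 of 5 adipocyte markers (Cfd), 4 of 5 cartilage markers, 1 of 5 endothelial markers, 1 of 6 lung epithelial markers and 2 of 4 skeletal muscle markers were called higher in MI and none lower. Over all genes 40.1% were called higher. Acan and Tnnt3, both called, passed the filter on low values through their levels in MI. Myh1 passed it through MI 4, and Sftpc, Sftpb, Sftpa1, Sftpd and Lamp3 passed it through MI 5. The counts of these lists depend on that. Without MI 5 no lung, skeletal muscle, Schwann cell, endothelial or cardiomyocyte marker was called, 9 macrophage markers were, and all 14 fibroblast and matrix markers were still called higher. In that setting 19.4% of all genes were called and 18.4% were called higher. Without MI 4 both skeletal muscle calls, Tnnt3 and Mylpf, were kept. Without both libraries no marker, and none of the 13710 genes, was called, while all 14 fibroblast and all 14 macrophage markers were higher at an unadjusted p below 0.05. No member of any of these lists was called in HXP against MI or in HXP against control.

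Annexins are the membrane-binding partners of several S100 proteins. Of the 12 in the list 10 were tested, and 7 rose and none fell in MI, with a median log2 fold change of 1.14. The share called higher over all genes was 40.1%, with a median of 0.27. Anxa2, the partner of S100A10, was at 44.1 ± 14.8 FPKM in MI and 11.7 ± 1.41 FPKM in control (SD, n = 6 each; limma difference 1.77, SE 0.37, adjusted p = 0.0139). Anxa1, the partner of S100A11, was at 37.4 ± 14.3 FPKM in MI and 7.17 ± 0.728 FPKM in control (limma difference 2.13, SE 0.45, adjusted p = 0.0139). Anxa4 rose by 1.17 and Anxa8 by 2.18 on the log2 scale.

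The wider list of intracellular partners had 12 tested members, of which 7 rose and 1 fell in MI (median 0.47). Over all genes 40.1% were called higher and 43.3% were called in either direction (median 0.27). Beside Anxa1 and Anxa2 the partners with the smallest p were Ppfibp1, the S100A4-binding liprin beta 1, with a log2 fold change of 0.86 (SE 0.23), and Ahnak, a giant protein bound to S100A10 and annexin A2, with 0.70 (SE 0.19; limma adjusted p = 0.0149 and 0.0158). The myosin heavy chain Myh9, bound by S100A4, had a log2 fold change of 1.07 (limma adjusted p = 0.0208, SE 0.33). Among the targets of S100A1, Atp2a2, which encodes SERCA2a, fell by 0.54 on the log2 scale (limma adjusted p = 0.0493, SE 0.21), and Ryr2, the ryanodine receptor, had -0.36 (SE 0.18, adjusted p = 0.118). Cacybp, the S100A6 partner, had -0.19 (SE 0.08, adjusted p = 0.0725).

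Of the 13 receptor and signalling genes of extracellular S100 proteins, 7 rose and 1 fell in MI (median 0.58). Over all genes 40.1% were called higher and 43.3% were called in either direction (median 0.27), so this count is not particular to the list. Cd14, a TLR4 co-receptor, was at 11.9 ± 5.10 FPKM in MI and 3.05 ± 0.581 FPKM in control (SD, n = 6 each; limma difference 1.56, SE 0.44, adjusted p = 0.0167). Ly96, the TLR4 partner MD-2, had a log2 fold change of 0.60, and Nfkb1, a subunit of NF-kappa B, 0.71. Cd36, the fatty acid transporter, fell by 0.44 on the log2 scale (limma adjusted p = 0.0195, SE 0.13).

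Tlr4 itself had a log2 fold change of 0.54 (limma adjusted p = 0.0629, SE 0.23). Ager, which encodes RAGE and is abundant in lung alveolar epithelium, was at 24.2 FPKM in MI 5, the library with lung transcripts. In the other libraries it was at 0.122 to 0.432 FPKM in HXP, 0.137 to 0.344 FPKM in MI and 0.0365 to 0.132 FPKM in control. Without MI 5 the calls in MI numbered 7 of 10 annexins, 4 of 12 partners and 4 of 13 receptor and signalling genes, all higher and with Ager, which passed the filter on low values through its level in MI 5, among the 4. In that setting 19.4% of all genes were called and 18.4% were called higher, fewer than in the main fit. Atp2a2 and Cd36 were not called without MI 5, and Atp2a2 was not called without MI 4. Without both libraries 0 genes of these lists and 0 of all genes were called, with 7, 8 and 7 list genes at an unadjusted p below 0.05. No annexin, partner or receptor gene was called in HXP against MI or in HXP against control.

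Likeness was measured as the Pearson r of deviations of log2(FPKM + 1) from the group means over the 18 libraries, among 10793 genes. These were the 11792 that averaged 1 FPKM or more less 982 with predicted names (Gm or Rik), 7 with no symbol and the 10 members. The libraries share depth, and the cell mixture of each piece of tissue enters all genes, so r is a description. The nearest gene was Anxa1 for S100a6 (r = 0.99), Rsu1 for S100a11 (0.98), Igha for S100a4 (0.97), Slfn2 for S100a10 (0.96) and Ccn2 for S100b (0.97). S100a13 lay nearest to the ribosomal protein genes Rpl34 (0.98), Rps23 (0.98) and Rpl23 (0.98).

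The remaining members were less closely matched. S100a1 lay nearest to Smim11 (0.88), S100a16 to Anapc10 (0.86), S100a8 to Slc22a5 (0.83) and S100a9 to Zfp672 (0.73). Within the family, S100a6 had r = 0.96 with S100a4, 0.94 with S100a11 and 0.93 with S100a10. S100a1 had -0.38 to 0.39 with every other member, and S100a8 had 0.91 with S100a9, 0.39 with S100a1 and -0.33 to 0.12 with the other members.

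Other family members in the files were too low to test. S100a7a had its highest level, 1.49 FPKM, in MI 5 and a median of 0.258 FPKM in HXP, 0.583 FPKM in MI and 0.0562 FPKM in control. S100g, at 3.57 FPKM, and S100a14, at 0.471 FPKM, were also highest in MI 5. S100a3 reached at most 0.0203 FPKM.

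No member was called in MI in the run of 10 libraries alone or without MI 4 and MI 5. Leaving out 1 library kept 5 to 7 called members. In the run of 10 libraries alone (5 MI, 3 control) the log2 fold change was 1.62 for S100a11 (limma adjusted p = 0.0535), 1.75 for S100a4 (0.0837), 1.35 for S100a6 (0.0660), 0.99 for S100a10 (0.0595), 0.64 for S100a13 (0.0942), 0.34 for S100a16 (0.176) and 0.67 for S100b (0.10), so 0 of 10 were called with 6 at an unadjusted p below 0.05, where 0.54% of all genes were called higher. The other runs held 1 MI and 2 control libraries, or 4 HXP and 1 control library, too few to give a value. Without MI 4 and MI 5 the log2 fold change was 1.72 for S100a11, 1.79 for S100a4, 1.44 for S100a6, 1.22 for S100a10 and 0.79 for S100a13, with limma adjusted p of 0.0555 to 0.0556, 0.50 for S100a16 (limma adjusted p = 0.104) and 0.68 for S100b (limma adjusted p = 0.0772). There again 0 of 10 members were called with 7 at an unadjusted p below 0.05, and 0 of all genes were called with 5998 at that level.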

How the data were processed

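Total RNA of heart tissue from 18 libraries was depleted of ribosomal RNA and sequenced, per the labels' protocols. The authors deposited 1 file per library with FPKM values for 34150 Ensembl genes; the file headers do not name the unit, which was inferred because 98.2% to 98.8% of the values checked, times exon length, were whole multiples of 1 step per library within 0.1 of a read. Per the submitters' processing notes the build was GRCm38 and limma was used. No label or header names an aligner or counting tool. GENCODE M21 matched 34097 identifiers and left 53 unmatched.

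The 13710 genes that averaged 0.5 FPKM or more were analysed as log2(FPKM + 1), with a pseudocount of 1, in 1 linear model of the 3 groups over all 18 libraries with limma 3.58.1 (R 4.3.3, two-sided tests, trend on). A gene was called where its p, adjusted by Benjamini-Hochberg over all genes tested, was below 0.05. The FPKM steps gave recovered reads, used for depth and for voom only. The model was checked on simulated data in which 200 genes were changed. All 10 members were named, list genes by the 4 smallest p in MI against control, Dip2a, Myh9, Atp2a2, Ryr2, Cacybp, Tlr4 and Ager were chosen after their values were seen, and likeness gave up to 3 genes per member. The members and lists were chosen with earlier results of these data known.

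Alternatives were quantile normalization, scaling to non-mitochondrial genes, median-ratio scaling, no filter, a pseudocount of 0.1, a minimum mean of 5 FPKM, the compared groups only, a robust prior, the run of library numbers as covariate, the replicate block, the run of 10 libraries alone, MI 1 and MI 2 averaged, leaving out MI 4 and MI 5 or each library, and voom, which was chosen after seeing the data, as was recounting the lists without MI 4 or MI 5. MI 1 and MI 2 were the closest libraries but differed by 6.50 times counting noise and were counted as 2. Same-numbered libraries correlated from -0.31 to 0.64, not above 0.1 in every pair, so numbers were not taken to pair libraries. Python 3.11.15 with matplotlib 3.10.9 drew the figures.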

Additional observations from a re-analysis of the deposited data

Results flagged for a closer look

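In 2 of 30 groups checked, 1 library stood far from the other 5, a gap that chance alone gives in about 1 of 20 groups. Control 4 was the highest control for S100a6, at 15.1 FPKM, against 11.7 FPKM in the next control. It was also the highest control for S100a10, at 26.3 FPKM, against 17.4 FPKM in the next. For S100a4, S100a13, S100a16 and S100b control 4 was the highest control as well. Its fibroblast and matrix markers summed to 223 FPKM and its macrophage markers to 240 FPKM, each the highest of the 6 controls; their part in these values was not tested.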

How the results depend on the processing

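S100a4, S100a6, S100a10, S100a11 and S100a13 stayed higher in MI in all 32 alternatives each and called in 30, all but the run of 10 libraries alone and leaving out MI 4 and MI 5, where the count of called members was 0. S100a16 lost its call in 13 of 32 alternatives and S100b in 5 of 31 (S100b was not tested at a mean of at least 5 FPKM). Leaving out 1 library gave 5 to 7 called members in MI against control, 0 to 0 in HXP against MI and 0 to 5 in HXP against control, where quantile, non-mitochondrial and median-ratio scaling gave 5. The replicate block called 7, 0 and 0 members in these comparisons and changed no member's call; the numbers did not pair the libraries. Over all genes, MI against control gave 2292 calls at a mean of at least 5 FPKM, 79 in the run of 10, 0 without MI 4 and MI 5 and 2656 to 6972 leaving out 1 library, with 2656 without MI 5. HXP against MI gave 4 under quantile and 4 under median-ratio scaling, 1 with the replicate block, 3 in the run of 10 and 0 to 71 leaving out 1 library. HXP against control gave 1231 (quantile), 1257 (non-mitochondrial), 1281 (median-ratio), 0 (no filter), 85 (mean of at least 5 FPKM), 103 (pseudocount of 0.1), 5 (compared groups only), 1 (replicate block), 0 (run as a covariate), 3 (run of 10), 16 (MI 1 and MI 2 averaged), 20 (without MI 4 and MI 5), 14 (voom) and 0 to 4236 leaving out 1 library. Directions that reversed belonged to members with no call. In MI against control, the log2 fold change of S100a1 was 0.016 (run of 10), 0.024 (averaged), 0.037 (without MI 4 and MI 5) and -0.084 to 0.032 leaving out 1 library. S100a8 was at -0.32 (quantile), -0.12 (non-mitochondrial), -0.19 (median-ratio), -0.013 (pseudocount of 0.1), -0.21 (covariate), -0.62 (run of 10), -0.075 (voom) and -0.27 to 0.32 leaving out 1. S100a9 was at -0.13 (quantile), -0.024 (median-ratio), -0.047 (covariate), -0.73 (run of 10) and -0.11 to 0.62 leaving out 1. In HXP against MI, the covariate gave 0.13 for S100a6, 0.16 for S100a10 and 0.093 for S100a13. The run of 10 gave 0.10 for S100a4, 0.40 for S100a6, 0.31 for S100a10, 0.27 for S100a11, 0.14 for S100a13 and -0.20 for S100a9. Quantile, non-mitochondrial and median-ratio scaling gave 0.025, 0.00047 and 0.018 for S100a10 and 0.079, 0.052 and 0.070 for S100a13. S100a9 was also at -0.39 (pseudocount of 0.1), -0.030 (averaged), -0.18 (without MI 4 and MI 5) and -0.88 (voom), and S100a8 at -0.032 (without MI 4 and MI 5) and -0.050 (voom). Leaving out 1 library gave -0.42 to 0.13 for S100a6, -0.31 to 0.080 for S100a10, -0.19 to 0.042 for S100a13 and -0.25 to 0.41 for S100a9. In HXP against control, S100a1 was at -0.095 (median-ratio), S100a8 at -0.16 (run of 10) and -0.12 (voom), S100a9 at -0.93 (run of 10), S100a16 at 0.066 (covariate) and 0.14 (run of 10) and S100b at -0.29 (voom). Leaving out 1 library gave -0.18 to 0.097 for S100a16 and -0.067 to 0.66 for S100a9. The smaller sets hold fewer libraries, and the cause of the changes was not tested in any setting. The depth limits the values of S100b, S100a8 and S100a9, which rested on 0 to 483 reads per library.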
